A study of Mus musculus with 2 samples.

Results

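Rn45s, Malat1 and Neat1 are the most familiar abundant RNAs of the nucleus that encode no protein, and all 3 were found by symbol among the 15348 genes of the deposited table. They were picked by name, with earlier results of these libraries known, so the control and OTD values below describe the 2 libraries and are not tests. The liver RNA came from female NOG-TKm30 mice aged 16 weeks. NOG mice are severely immunodeficient, and the TKm30 transgene uses the enhancer and promoter of the mouse transthyretin gene, which is active in hepatocytes, to drive HSVtk mutant clone 30, a viral thymidine kinase. Both groups carried this transgene. One group was given the aromatic amine ortho-toluidine (OTD), first 0.6% during 1 week and then 0.3% during 3 weeks, and the control group was given 0% throughout. Each group was pooled before sequencing, 3 mice for the control library and 5 mice for the OTD library, so the spread between mice is unknown. The treatment protocol names C57BL mice where the other labels name NOG-TKm30, and the word Wild in the column headings is not explained.

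Rn45s stands for the long precursor that RNA polymerase I makes in the nucleolus and that is cut and trimmed into the 18S, 5.8S and 28S RNAs of the ribosome. The value for Rn45s does not separate reads of this precursor from reads of the mature RNAs that remained after depletion. Malat1 is a long noncoding RNA of nuclear speckles, the bodies in which splicing factors gather, and Neat1 is the scaffold on which paraspeckles are built. In liver, many hepatocytes hold several sets of chromosomes, and some mRNAs are known to be held back in their nuclei. Malat1 and the long form of Neat1 carry no poly(A) tail. RNase P cuts off a tRNA-like RNA behind each of them and leaves an end that folds into a triple helix of U-rich and A-rich stretches. Libraries made after removal of ribosomal RNA, as here from 200 ng of total RNA, can read such RNAs without selection for a tail.

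Those ends are shown here because each of the 2 long noncoding RNAs is cut there, and only these ends were compared in sequence. Both genes are transcribed from the minus strand of chromosome 19 in GRCm38 (the mm10 assembly), with 22.0 kb between them. Malat1 lies at 5795690 to 5802672 and Neat1 at 5824708 to 5845478, and in GENCODE M21 the longest transcript of each is a lincRNA of 1 exon. The last 110 bases before the cut are printed 5′ to 3′, with T for U, and capitals mark every stretch of at least 10 bases that both ends contain.
Malat1, chr19:5795982-5796091: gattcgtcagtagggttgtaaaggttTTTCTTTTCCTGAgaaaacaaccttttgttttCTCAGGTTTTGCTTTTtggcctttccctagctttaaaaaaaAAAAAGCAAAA
Neat1, chr19:5824708-5824817: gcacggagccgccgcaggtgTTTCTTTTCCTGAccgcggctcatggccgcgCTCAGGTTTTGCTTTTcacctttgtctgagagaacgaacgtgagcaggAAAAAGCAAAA

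The 2 ends shared 3 stretches in the same order, of 13, 16 and 11 bases. The first and second are rich in T, and the third, rich in A, forms the last 11 bases of each RNA. Between them the sequences differed, and the G and C content of the 110 bases was 33.6% in Malat1 and 54.5% in Neat1. The end of Malat1 was taken as the base before Mascrna, the tRNA-like RNA annotated by RefSeq, and the GENCODE gene model runs on for 234 bases behind it. The model of Neat1 ends 0 bases before the small RNA gene Gm27702. These 2 small RNAs are printed because they show the same relation, with capitals for stretches of at least 8 bases in common.
Mascrna, chr19:5795924-5795981: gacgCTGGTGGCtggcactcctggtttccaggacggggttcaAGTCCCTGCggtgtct
Gm27702, chr19:5824652-5824707: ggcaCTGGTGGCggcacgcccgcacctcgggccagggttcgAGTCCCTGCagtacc

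Mascrna has 58 bases and Gm27702 has 56, and they shared 2 stretches, of 8 and 9 bases. Neither Gm27702 nor Mascrna was among the listed genes, so only the long RNAs have values. The annotation also places Gm37376 on the opposite strand within Malat1. Whether reads were counted by strand is not given in the sources used here, so reads of an antisense RNA cannot be told apart from those of Malat1. Of all 50-base stretches of the longest transcripts, 1.67% for Malat1 and 1.28% for Neat1 also occurred in transcripts of other genes. No position, length or sequence is given here for Rn45s.

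Levels are the deposited values, which are counts per 1e+06 reads of a library divided by a factor near 1 (0.981 for control, 1.02 for OTD). Whole reads could be recovered from them, with totals of 13569189 (control) and 14685193 (OTD). Intervals are exact 95% Clopper-Pearson intervals on these reads and cover counting error only, not differences between mice, pools or library preparations. In bulk liver RNA, a change in the number of cells of a type and a change of RNA per cell cannot be told apart.

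Rn45s was the RNA with the largest gain in share of all listed genes. It had 199347 reads in control and 390825 in OTD. Its level was 14976 in control and 26106 in OTD, a ratio of 1.74 (1.73 to 1.75). As a share of all reads it was 1.47% (1.46 to 1.48) in control and 2.66% (2.65 to 2.67) in OTD, a ratio of shares of 1.81 (1.80 to 1.82). The OTD library was thus the higher of the 2 by either measure, and the gap was many times the counting error. By level Rn45s stood at place 4 in control, behind the genes for albumin, transferrin (Trf) and apolipoprotein E (Apoe), and at place 2 in OTD, behind albumin alone. The 2 genes next above it in control, Trf and Apoe, had ratios of 0.847 and 0.819, and the 2 next below, Apob and the complement gene C3, had 0.868 and 0.800. Each of these 4 secreted protein genes was lower in the OTD library, on the side of 1 opposite to Rn45s. That was usual at such levels. Of the 113 genes with a mean level of at least 1000, only 42 had a log2 ratio above the −0.062 of Neat1.

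Malat1 was also higher in the OTD library, by less. It had 34017 reads in control and 50917 in OTD, with levels of 2556 and 3401, a ratio of 1.33 (1.31 to 1.35). Its share of all reads was 0.251% (0.248 to 0.253) and 0.347% (0.344 to 0.350), a ratio of shares of 1.38 (1.36 to 1.40). With Rn45s left out of both totals the shares were 0.254% and 0.356%, a ratio of 1.40 (1.38 to 1.42), which is higher by construction, since Rn45s took more of the OTD library. In order of level it stood at place 43 in control and 29 in OTD. Its neighbours in that order in control were the genes for the immunoglobulin receptor Pigr and hemopexin (Hpx) above and Bhmt and complement C4b below. All 4 had ratios under 1, from 0.742 for C4b to 0.928 for Bhmt. Ratios under 1 were also usual among the genes with a mean level of at least 1000.

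Neat1 showed no difference beyond counting error at the deposited scaling. It had 3830 reads in control and 4126 in OTD, with levels of 287.7 and 275.6, a ratio of 0.958 (0.916 to 1.001). Its share of all reads was 0.0282% in control (0.0273 to 0.0291) and 0.0281% in OTD (0.0272 to 0.0290), a ratio of shares of 0.995 (0.952 to 1.04). The interval holds 1 and is too narrow, for counting error alone, to hold the ratio of Malat1. The sign of its log2 ratio depended on the scaling: it was −0.062 as deposited and 0.011 when the libraries were scaled to equal totals that leave out Rn45s. At the same upper quartile its ratio was 0.947 (0.906 to 0.990), an interval below 1, and under the 4 other scalings the interval held 1. The paraspeckle needs the long form of Neat1, but the table has 1 value per symbol, so the short and the long form were not separated.

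**Figure D1:**
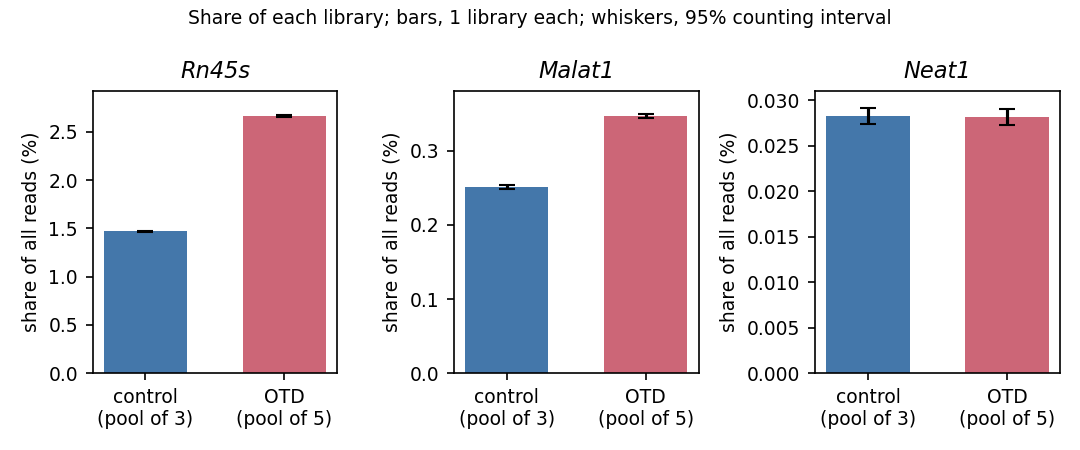
Share of all reads, in percent, taken by Rn45s, Malat1 and Neat1 in the control library (pool of 3 mice) and the OTD library (pool of 5 mice). Each bar is 1 library and whiskers are 95% counting intervals; the bars of Rn45s go from 1.47% to 2.66% and those of Malat1 from 0.251% to 0.347%, while the whiskers of Neat1 overlap. Each panel has its own axis from 0.

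Together the 3 RNAs took 1.75% (1.74 to 1.76) of the control reads and 3.04% (3.03 to 3.04) of the OTD reads, a ratio of 1.74 (1.73 to 1.75), and Rn45s made up most of both. Shares of a library sum to a fixed total, so every gain is matched by losses elsewhere. The gains of all 8980 genes whose share was higher in OTD added to 6.52 percentage points. Rn45s alone supplied 1.19 points, 18.3% of that sum, and Malat1 supplied 0.0960 points, or 1.47%. Between them in order of gain stood Cyp2c29, a drug-metabolizing cytochrome P450 gene, with 0.278 points, and the glutathione S-transferase gene Gstm1 with 0.115 points, both named after their values were seen. Rn45s was therefore at place 1 and Malat1 at place 4 among the gains in share, while the share of Neat1 was lower by 0.000129 points.

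Ratios within a library do not depend on scaling. Malat1 had 8.88 reads for each read of Neat1 in control and 12.3 in OTD, a ratio of 1.39 between libraries (1.33 to 1.45, a normal approximation on the log scale for counting error). Rn45s had 5.86 reads for each read of Malat1 in control and 7.68 in OTD, a ratio of 1.31 (1.29 to 1.33). Rn45s against Neat1 gave 52.0 and 94.7. In both libraries the order by reads was Rn45s, Malat1, Neat1, and the distance between each pair was wider in OTD.

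Levels of different genes can be compared only per length. Malat1, with 6983 bases, had a level per kilobase of 366.0 in control and 487.1 in OTD. Neat1 had 13.9 and 13.3 per kilobase over the 20771 bases of its long transcript, or 95.8 and 91.7 over the 3004 bases of the short transcript. With either length Malat1 was above Neat1 in both libraries. The long transcript of Neat1 was longer than the longest transcript of 99.9% of the 7364 measured genes with a length, and that of Malat1 longer than 88.5%.

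To place the 3 RNAs, log2 ratios of OTD over control were computed on the log2(level + 1) scale, which shrinks the differences of genes at low levels. The 7602 genes whose mean level over both libraries was at least 10 were called measured, and a gene was called higher or lower at a ratio of at least 2-fold. By this rule 16 genes, or 0.21%, were higher and 16, or 0.21%, lower, and 0 of the 3 RNAs passed it. Rn45s, at 0.80, was nearest to the limit of 1, and Malat1 had 0.41. At 1.5-fold, 1.51% of measured genes were higher, and Rn45s was the only 1 of the 3 among them. The ratio of Rn45s was exceeded by 43 measured genes, that of Malat1 by 307 and that of Neat1 by 4769. Among the 113 genes with a mean level of at least 1000, 2 were above Rn45s and 6 above Malat1.

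**Figure D2:**
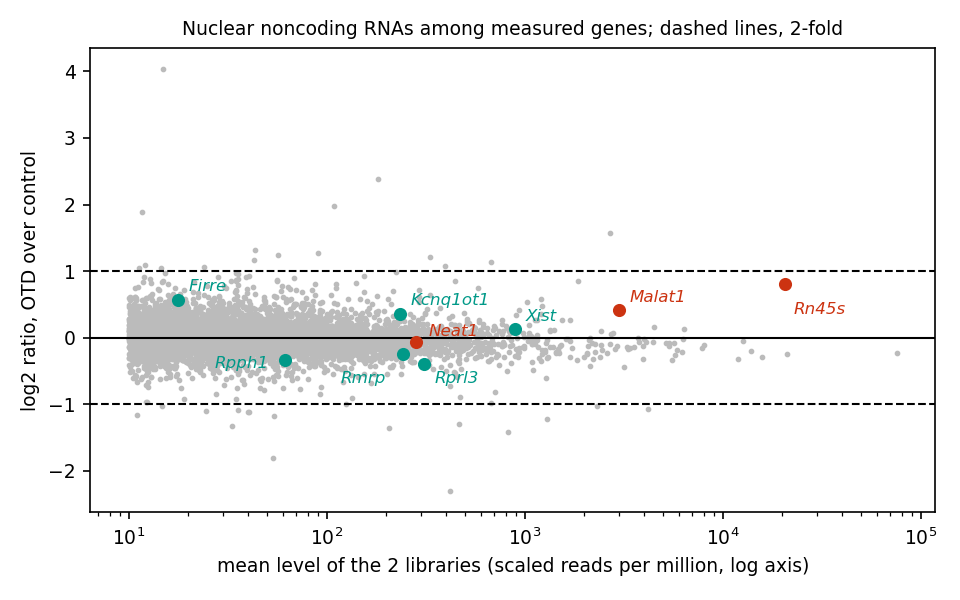
Log2 ratio of OTD over control against the mean level of the 2 libraries (scaled reads, log axis) for the 7602 measured genes in grey. Rn45s (0.80) and Malat1 (0.41) in red lie above most genes of their level and below the dashed 2-fold line, and Neat1 (−0.062) lies within the grey band; green points are other noncoding RNAs.

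The genes nearest in pattern were sought among those with a mean level of at least 100, by the absolute difference of log2 ratios over the 2 libraries. For Rn45s they were the alpha-globin gene Hba-a2, the water channel gene Aqp8 and the cytochrome P450 gene Cyp2a5. Their levels were, in that order, 80.6 (control) and 142.2 (OTD), 101.4 and 180.0, and 317.3 and 574.2. A second alpha-globin gene, Hba-a1, had 197.4 and 211.1 (ratio 1.07, 1.02 to 1.13). How reads were divided between Hba-a2 and Hba-a1 was not tested, so the value of Hba-a2 is uncertain. For Malat1 the nearest genes were Acss2, which makes acetyl-CoA from acetate, the pyruvate kinase gene Pklr and the retinaldehyde dehydrogenase gene Aldh1a1. Their ratios were 1.33, 1.33 and 1.34. For Neat1 they were the Wnt co-receptor gene Lrp6, the proprotein convertase gene Pcsk6 and the fibrinogen gene Fgb, each with a ratio of 0.958. With 2 libraries a pattern is a single ratio, so many genes lie close to any value.

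Genes that act on each of the 3 RNAs were then described from lists, with 0 members of any list past 2-fold among measured genes. Over all measured genes 0.21% were higher and 0.21% lower by this rule, so a count of 0 is close to that share. RNA polymerase I transcribes the precursor that Rn45s stands for. Of 24 listed genes of its machinery 12 were measured, with 2 above 0, 10 below 0 and a median log2 ratio of −0.073, beside −0.0063 for all measured genes, of which 48.4% were above 0. With Rn45s left out of the totals used for scaling, 5 of the 12 were above 0 and the median was −0.0037, beside 0.065 for all measured genes, of which 64.6% were then above 0. The polymerase subunit gene Polr1d was lowest, with levels of 32.1 and 25.0 (ratio 0.781, 0.678 to 0.899). Twistnb, another subunit gene, had levels of 15.0 and 13.3, and Ttf1, which acts in termination, had 26.1 and 23.2. Baz2a, a part of the complex that silences ribosomal DNA, was the most abundant and had 47.9 and 53.2, and the intervals of these last 3 ratios held 1. The ratio of Rn45s was above that of every measured gene in this list. Since only 43 of the 7602 measured genes had a higher ratio than Rn45s, this says little about the list. Below the filter, Myc had levels of 3.46 and 7.48 and a ratio of 2.16 (1.52 to 3.12). That ratio was above the ratio of Rn45s, which its interval held. With no filter, 6 of the 24 listed genes were above 0 and 18 below.

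Genes for processing of the precursor and assembly of ribosomes lay on both sides of 0. Of 58 listed members 40 were measured, 16 above and 24 below 0, with a median of −0.032, beside 48.4% of all measured genes above 0. The median turned to 0.040 after scaling without Rn45s, where the median of all measured genes was 0.065. After that scaling 24 of the 40 were above 0, beside 64.6% of all measured genes. The assembly factor gene Rrs1 was lowest, with levels of 13.2 and 8.35 (ratio 0.631, 0.498 to 0.799). Gnl3, which encodes the nucleolar protein nucleostemin, had levels of 23.9 and 17.4 (ratio 0.727, 0.615 to 0.859), and Nolc1 16.8 and 13.2. Imp4 was higher in OTD, with 16.9 and 20.7 (ratio 1.22, 1.03 to 1.46). Nucleolin (Ncl), the most abundant, had 125.2 and 122.0.

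Ribosomal protein genes, whose products join the mature ribosomal RNAs, were on the other side of 0 from Rn45s. Of 79 measured genes 76 were below 0, with a median of −0.16, and 65 of 79 after scaling without Rn45s, with a median of −0.085 beside the same 0.065. Among all measured genes 48.4% were above 0 as deposited and 64.6% after that scaling. Their summed share was 1.23% of reads in control and 1.14% in OTD. Rn45s had 1.20 reads for each read of these genes together in control and 2.34 in OTD, a ratio of 1.95 (1.93 to 1.97). Rps2, the most abundant, had levels of 628.0 and 540.9, and Rps14, the lowest ratio, had 190.3 and 141.7. Rpl34, Rpl11 and Rpl22 had ratios of 0.775, 0.785 and 0.785.

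Small structural RNAs are, like ribosomal RNA, short of a poly(A) tail, and 4 of 14 listed ones were measured. All 4 were below 0 under each scaling used, with a median of −0.28 as deposited. Rmrp, the RNA of the enzyme RNase MRP that cuts the ribosomal precursor, had levels of 261.6 and 221.8 (ratio 0.848, 0.808 to 0.890). Rpph1, the RNA of RNase P, which cuts the ends of Malat1 and Neat1, had 68.7 and 54.5 (ratio 0.794, 0.721 to 0.873). Rprl3, whose name marks it as RNase P RNA-like, had 351.4 and 266.1, and since such copies can share reads with Rpph1 both values are uncertain. Scarna13 had 15.1 and 14.2. Rn45s and these 4 measured RNAs lay on opposite sides of 0. Rn45s had 57.3 reads for each read of Rmrp in control and 117.7 in OTD, a ratio of 2.06 (1.96 to 2.16). Among the protein genes of RNase P and RNase Z, which trims the tRNA-like RNA, Pop5 had 18.2 and 15.6 and Elac2 25.9 and 26.3, and both intervals held 1. How completely ribosomal RNA was removed from each library was not measured, and its part in the Rn45s values was not tested.

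Splicing factors and other speckle proteins, which gather where Malat1 resides, were mostly above 0. Of 34 listed genes 32 were measured, 25 above and 7 below 0, with a median of 0.12. Beside them, 48.4% of all measured genes were above 0, with a median of −0.0063. The count above 0 was 24 to 26 under the 5 other scalings, while the share of all measured genes went from 45.1% to 64.9%. Where that share was 64.9%, with the 3 RNAs left out of the totals, 26 of the 32 were above 0. Srsf5 was highest of the measured genes, with levels of 47.0 and 72.6 (ratio 1.54, 1.40 to 1.71). Below the filter, Clk2 was past 2-fold, with levels of 2.70 and 6.68 from 36 and 100 reads (ratio 2.47, 1.67 to 3.72). The splicing factor genes Snrnp70, Srsf3 and Srsf1 had ratios of 1.34, 1.31 and 1.29. Prpf8, at the core of the spliceosome and the most abundant of the list, had 405.4 and 419.4 (ratio 1.03, 0.998 to 1.07). Malat1, with a ratio of 1.33, lay near Snrnp70 and below Srsf5.

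Paraspeckle proteins, the partners of Neat1, showed no shared direction. Of 28 listed genes 24 were measured, 13 above and 11 below 0, with a median of 0.026, beside 48.4% of all measured genes above 0. Tardbp had levels of 68.3 and 85.6 (ratio 1.25, 1.15 to 1.37) and Ewsr1 47.1 and 57.2, both genes of RNA-binding proteins. Rbm7, which takes part in RNA decay in the nucleus, had 42.3 and 33.3 (ratio 0.786, 0.696 to 0.889). Hnrnpk, which favours the long form of Neat1 and was the most abundant, had 229.9 and 232.7. Neat1, at −0.062, lay inside the range of these genes, from −0.34 to 0.36. That range is wide beside the standard deviation of 0.24 across all measured genes, so lying inside it says little.

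**Figure D3:**
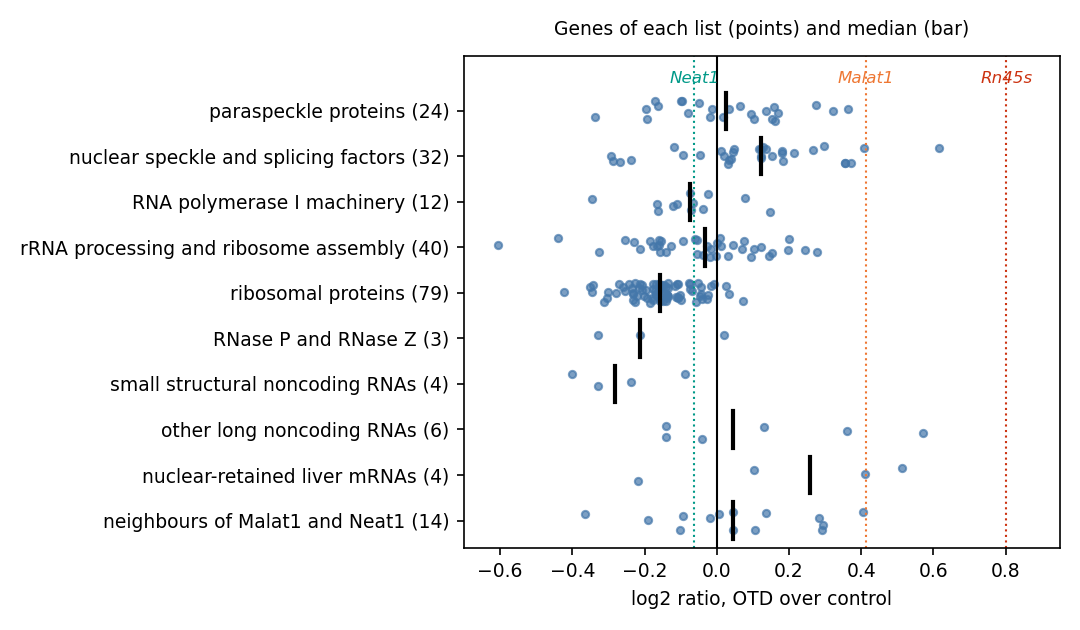
Log2 ratio of OTD over control for the measured genes of 10 lists, cell type markers not shown (points, number in parentheses) with the list median as a black bar and the 3 RNAs as dotted lines. Rn45s at 0.80 lies to the right of all points, Malat1 at 0.41 to the right of most, and the ribosomal protein genes lie mostly left of 0.

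Other long noncoding RNAs were compared next. By GENCODE type 604 listed genes were long noncoding, and they took 0.601% of control reads and 0.751% of OTD reads. Malat1 alone made up 41.7% of these reads in control and 46.2% in OTD, and Neat1 4.69% and 3.74%. Without Malat1 and Neat1, 36 long noncoding genes were measured, 24 above and 12 below 0, with a median log2 ratio of 0.13 and 0 past 2-fold. Rmrp, described above as a small structural RNA, is also of this class by GENCODE type and is among the 12 below 0. For all measured genes the share above 0 was 48.4% and the median −0.0063. Of 20 listed RNAs with a known nuclear or regulatory role, 6 were measured, 3 above and 3 below 0, with a median of 0.045. Xist, which coats the inactive X chromosome and was second to Malat1, had levels of 850.2 and 930.9 (ratio 1.09, 1.07 to 1.12). Kcnq1ot1, which silences an imprinted domain, had 205.5 and 264.1 (ratio 1.29, 1.22 to 1.35). Firre, another nuclear RNA of the X chromosome, had 14.0 and 21.4 (ratio 1.52, 1.27 to 1.83). Tug1, with 54.6 and 49.4, Peg13, with 12.3 and 11.1, and Mir22hg, with 15.6 and 15.1, were lower in OTD. The intervals of these 3 ratios held 1. Malat1 had 3.01 reads for each read of Xist in control and 3.65 in OTD, a ratio of 1.22 (1.18 to 1.25), so it was higher against Xist as well. Of the snoRNA host genes 15 were listed and 0 measured.

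The mRNAs known to be held in liver nuclei were a list of 4, all measured, with 3 above and 1 below 0 and a median of 0.26. Among all measured genes 48.4% were above 0. Mlxipl, which encodes the glucose-sensing factor ChREBP, had levels of 138.8 and 198.6 (ratio 1.43, 1.35 to 1.52). Nlrp6 had 79.6 and 106.2 (ratio 1.33, 1.23 to 1.44), and the glucagon receptor gene Gcgr 140.4 and 150.9 (ratio 1.07, 1.01 to 1.14). The ratios of Mlxipl and Nlrp6 thus lay near that of Malat1, and the ratio of Gcgr lay closer to 1.

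Genes within 250 kb of Malat1 or Neat1 were examined, since the 2 genes lie side by side and yet had different ratios. Of 28 listed neighbours 14 were measured, 9 above and 5 below 0, with a median of 0.045. For all measured genes the share above 0 was 48.4% and the median −0.0063. On the side behind Malat1, the kinase gene Map3k11 had the lowest ratio, with levels of 50.6 and 39.1 (0.772, 0.690 to 0.863). On the side of Neat1, Frmd8 had 15.3 and 18.9 and the chromatin factor gene Dpf2 19.8 and 24.4 (ratio 1.24, 1.05 to 1.46). Mrpl49, a mitochondrial ribosomal protein gene, had the highest ratio, with 18.4 and 24.7 (1.34, 1.14 to 1.58), and the most abundant neighbour, Fau, had 196.9 and 183.4. Malat1 and Mrpl49 had the highest log2 ratios of the measured genes here, both 0.41, and Neat1, between Malat1 and Frmd8, was below 0 as deposited.

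**Figure D4:**
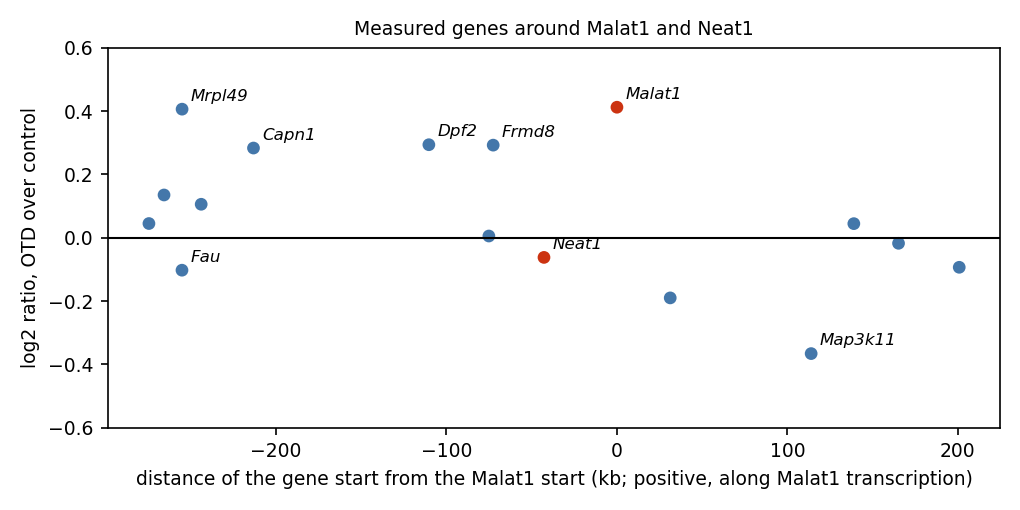
Log2 ratio of OTD over control for the 14 measured neighbours (blue) and for Malat1 and Neat1 (red) against the distance of each gene's start from the start of Malat1, in kb along its direction of transcription. Malat1 at 0.41 and Mrpl49 at 0.41 are the highest points, and Map3k11 at −0.37 is the lowest.

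The hepatocyte markers Alb, Apoa1, Ttr, Serpina1c, Cps1 and Hnf4a were all abundant, with a summed level of 104618 in control and 92030 in OTD. Other cells present in the pools had summed marker levels of 311.1 and 285.3 for Kupffer cells (6 markers), 364.1 and 335.3 for sinusoidal endothelium (5 markers) and 509.6 and 482.5 for stellate cells (5 markers), and the 4 cholangiocyte markers summed to 20.6 in control and to less in OTD. Of these 4, Sox9 was lower in OTD (17.5 and 14.4), and the scarce Epcam, Krt19 and Krt7 were higher, with Krt7 at 0.751 and 1.74. Each of these sums was lower in the OTD library, whereas the 5 erythroid markers summed to 311.0 and 387.5. The lower sums did not hold for every marker. Alb, at 81661 and 69694, made up most of the hepatocyte sum, while Cps1 was higher in OTD (6095 and 6701). The other 5 hepatocyte markers and all 6 Kupffer cell markers were lower. Lyve1 of the endothelial list and Pdgfrb and Col1a1 of the stellate list were higher, with intervals that held 1. The remaining 4 endothelial and 3 stellate markers were lower. Among the erythroid markers, Hba-a2 had levels of 80.6 and 142.2, and Hba-a1 had 197.4 and 211.1. The ratios of Alas2, Hbb-bt and Hbb-bs were 1.06, 1.05 and 0.889. Of the 5 genes chosen as lymphoid markers only Ptprc was listed, at 6.76 and 9.42. Ptprc is a gene of leukocytes in general, so these values are not a reading of lymphoid cells. Across all marker lists, 0 listed markers stood at 0 in both libraries. The part of cell composition in the values of the 3 RNAs was not tested.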

How the data were processed

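Liver RNA of 1 control and 1 OTD pool was sequenced after ribosomal RNA depletion with a directional kit, per the labels' protocols. The deposited table holds 1 normalized signal per gene symbol and library, made by the authors. Trimmomatic 0.38, Bowtie2, RSEM, edgeR and mm10 are named, with no role, per the submitters' processing notes. How reads of repeated ribosomal RNA genes were placed, the use of strand and any gene filter are not stated there. Every value (100% in both columns, tolerance 1e-06) was a whole multiple of 1 read, so reads were recovered.

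The endings Ctrl and OTD of the column headings gave the group of each column. Since each group is 1 library, a count model has no spread to estimate and no p-value is given. A level of 3 reads was 0.225 in control and 0.200 in OTD. The members, the lists and the rule for named genes were chosen with earlier results of these data known. Named genes were the members, per list up to 4 measured genes with the largest absolute log2 ratio and the most abundant, the 2 nearest in level on each side and the 3 nearest in ratio among genes at a mean of 100 or more, leaving out unnamed models. A few genes named by it are left out of the text. GENCODE M21 (GRCm38) matched 14732 symbols (96.0%) and gave positions, transcripts and lengths, and RefSeq (GRCm38.p6) gave Mascrna. Neighbours of Rn45s were not computed. Alternatives were pseudocounts of 0.5 and 10, 5 scalings, mean levels of at least 50 or 1 or no filter, other totals for shares and a 1.5-fold rule. On simulated reads for OTD over control (7602 genes, 200 changed) the intervals held the true ratio for 95.5% of genes. These reads had counting error alone, so a value near 95% followed from the setting. Spread between mice, pools or preparations was not simulated. Computations used pandas 2.3.3, numpy 2.4.6 and scipy 1.17.1 under Python 3.11.15, and plots matplotlib 3.10.9.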

Additional observations from a re-analysis of the deposited data

How the results depend on the processing

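Under every alternative run, Rn45s and Malat1 stayed above 0 and below 2-fold. The log2 ratio of Rn45s, 0.80 as deposited, was 0.86 at the same total, 0.87 at the same total without Rn45s, 0.88 without the 3 RNAs and 0.79 at the same upper quartile. That of Malat1 was 0.47, 0.49 and 0.49 under the first 3 of these. Neat1 turned to 0.011 at the same total without Rn45s and to 0.012 without the 3 RNAs. Against all reads other than Rn45s, the share ratio of Rn45s was 1.83 and that of the 3 together 1.76. Without the 10 most abundant other genes in the total, share ratios were 1.77 for Rn45s, 1.35 for Malat1 and 1.70 for the 3 together. These shifts follow from the totals used. At 1.5-fold 115 genes were higher and 69 lower, in place of 16 and 16, and with no filter 44 and 26, as more genes entered. The scalings moved the median of all genes by at most 0.072. Of 100 list medians under alternatives 99 stayed within a band around the deposited median. Its half-width was the median half-width of the counting intervals of the single genes in the list. This is not the counting error of a list median, and the band is wide, so staying inside it says little. The median took either sign in 2 of 10 lists. They were RNA polymerase I (0.15 at a mean of at least 50, where Baz2a alone is left) and ribosomal RNA processing. No paired analysis was possible because each group has 1 library. No replicate could be left out, so no difference here has a replicate check.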
